A study of Mus musculus with 20 samples.

Results

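The epithelial microRNAs (miRNAs) described here are the 5 members of the miR-200 family (miR-200b-3p, miR-200a-3p, miR-429-3p, miR-200c-3p and miR-141-3p) with miR-205-5p and miR-203-3p. They were taken by name as 7 of the 1545 entries of a small RNA sequencing table of 20 whole mouse hearts. Earlier results of these data were known when they were chosen. The hearts came from C57BL/6J mice and fell into 7 hearts with myocardial infarction and CIH (MI+CIH), 4 with infarction alone (MI), 4 with CIH alone and 5 sham hearts. CIH stands in the labels as letters only and is taken to mean chronic intermittent hypoxia, in which animals breathe oxygen-poor air in repeated short spells, a model of sleep apnoea. The labels give no age, time after infarction or length of exposure, and do not say that each library is a separate animal. The p-values therefore measure the spread between these libraries.

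MiRNAs are short RNAs that pair with messenger RNAs and repress them, mainly through the seed, bases 2 to 8 of the miRNA. The miR-200 family is abundant in epithelial cells, where it represses the transcription factors ZEB1 and ZEB2 and so keeps up E-cadherin, the adhesion protein of epithelial sheets. The ZEB factors in turn repress the miR-200 genes, a mutual repression known as a switch between epithelial and mesenchymal states. miR-205 also represses both ZEB factors and marks stratified and glandular epithelia, and miR-203 promotes the differentiation of skin cells and represses the stem cell factor p63. Heart muscle and cardiac fibroblasts are not epithelial and are not known as main sites of these miRNAs.

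The mature sequences are shown because the family splits by 1 seed base and because its members are near copies of each other. They are the RefSeq sequences for GRCm38.p6, 5′ to 3′, with the seed in capitals; all 7 members were matched. The first 3 share a seed, the next 2 share another, and miR-205-5p and miR-203-3p have a seed of their own.
miR-200b-3p: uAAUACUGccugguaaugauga
miR-200c-3p: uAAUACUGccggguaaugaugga
miR-429-3p: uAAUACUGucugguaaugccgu
miR-200a-3p: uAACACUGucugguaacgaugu
miR-141-3p: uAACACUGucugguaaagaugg
miR-205-5p: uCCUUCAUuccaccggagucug
miR-203-3p: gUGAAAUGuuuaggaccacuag
Counted from 1 at the 5′ end, the seed difference from miR-200b-3p to miR-200a-3p is U4C. Within a seed class the members from the 2 loci are nearly the same: miR-200c-3p differs from miR-200b-3p by U11G and A22G, and miR-141-3p from miR-200a-3p by C17A and U22G. The mismatches allowed in counting are not given in the sources used here, so the split of reads between miR-200b-3p and miR-200c-3p, and between miR-200a-3p and miR-141-3p, is uncertain.

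The seed classes cut across the genome (GRCm38 coordinates). Mir200b (chr4:156055681-156055750), Mir200a (chr4:156054896-156054985) and Mir429 (chr4:156053905-156053987) lie within 1846 bases on the minus strand of chromosome 4, in introns of the tubulin ligase family gene Ttll10. All 3 also lie inside the noncoding transcript Gm13648, where Mir429 overlaps an exon. Mir200c (chr6:124718322-124718390) and Mir141 (chr6:124717914-124717985) lie 336 bases apart on the minus strand of chromosome 6, in an intron of the noncoding gene Gm15884. Mir205 (chr1:193507463-193507530, minus strand) lies in an exon of the noncoding gene 4631405K08Rik, and Mir203 (chr12:112130880-112130955, plus strand) overlaps no annotated gene.

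Values are reads of a miRNA per 1000000 miRNA reads of its library (RPM). Libraries held 1991323 to 18138415 miRNA reads, so that 1 read was worth 0.0551 to 0.502 RPM. These totals include 12 entries that repeat another entry to within 5% in every library. The repeats held 7.79% to 26.7% of the reads in MI+CIH, 16.4% to 29.6% in MI, 25.0% to 31.6% in CIH and 19.3% to 27.7% in sham hearts. The libraries were clustered into 3 sets, a number fixed beforehand, by their correlation over the 360 tested miRNAs, the tested members among them. Correlations were 0.908 to 0.994 within sets and 0.71 to 0.932 between sets. Since the sets were made from these correlations, higher values within sets are no separate result. The labels name no batch. Set A held 11 hearts (MI+CIH 1, MI 2, all 4 CIH and all 5 sham), set B 6 (MI+CIH 2 to 5, MI 1 and MI 3) and set C 3 (MI+CIH 6 and 7, and MI 4). Since set A held every sham and CIH heart, infarction and library set cannot be told apart except through MI+CIH 1 and MI 2. The labels of MI 2 and sham 1 are themselves in doubt. MI 2 is the only MI heart of set A, so for it a wrong label and the library set cannot be told apart. miR-214-3p, a fibroblast miRNA, had 21.3 RPM in MI 2 against 85.1 to 1135 RPM in the other 3 MI hearts, and 198 RPM in sham 1 against 21.0 to 35.5 RPM in the other 4 sham hearts. miR-21a-5p, known to be raised in injured hearts, had 100570 RPM in sham 1 against 17878 to 28616 RPM in the other sham hearts. MI 2 (17547 RPM) lay within the 7732 to 20198 RPM of the other MI hearts. That MI range does not lie above the range of the other sham hearts, so miR-21a-5p does not settle either label here. The heart label is met by the heart muscle miRNAs (miR-1a-3p, miR-133a-3p, miR-208a-3p and miR-499-5p), which summed to 88403 RPM or more in every library.

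All members were sequenced in the hearts, at levels from 0 to 547 RPM. Over all 20 hearts miR-200b-3p averaged 97.8 RPM, rank 124 among the 1427 entries with a miRBase name, and miR-203-3p averaged 91.2 RPM. miR-200a-3p averaged 63.3 RPM, miR-200c-3p 46.8, miR-205-5p 12.7, miR-429-3p 9.79 and miR-141-3p 2.38 RPM. The order was not the same from heart to heart: miR-200b-3p was above miR-200a-3p in 11 of 20 hearts, while miR-200b-3p was above miR-200c-3p, and miR-200c-3p above miR-141-3p, in all 20. miR-203-3p stood apart by its evenness, with a highest value 3.67 times its lowest (50.8 to 186 RPM), against 31.7 times for miR-200a-3p, 150 times for miR-200c-3p and 359 times for miR-205-5p. A low member rests on few reads, and for miR-205-5p, miR-429-3p and miR-141-3p such ratios carry large counting error.

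**Figure D1:**
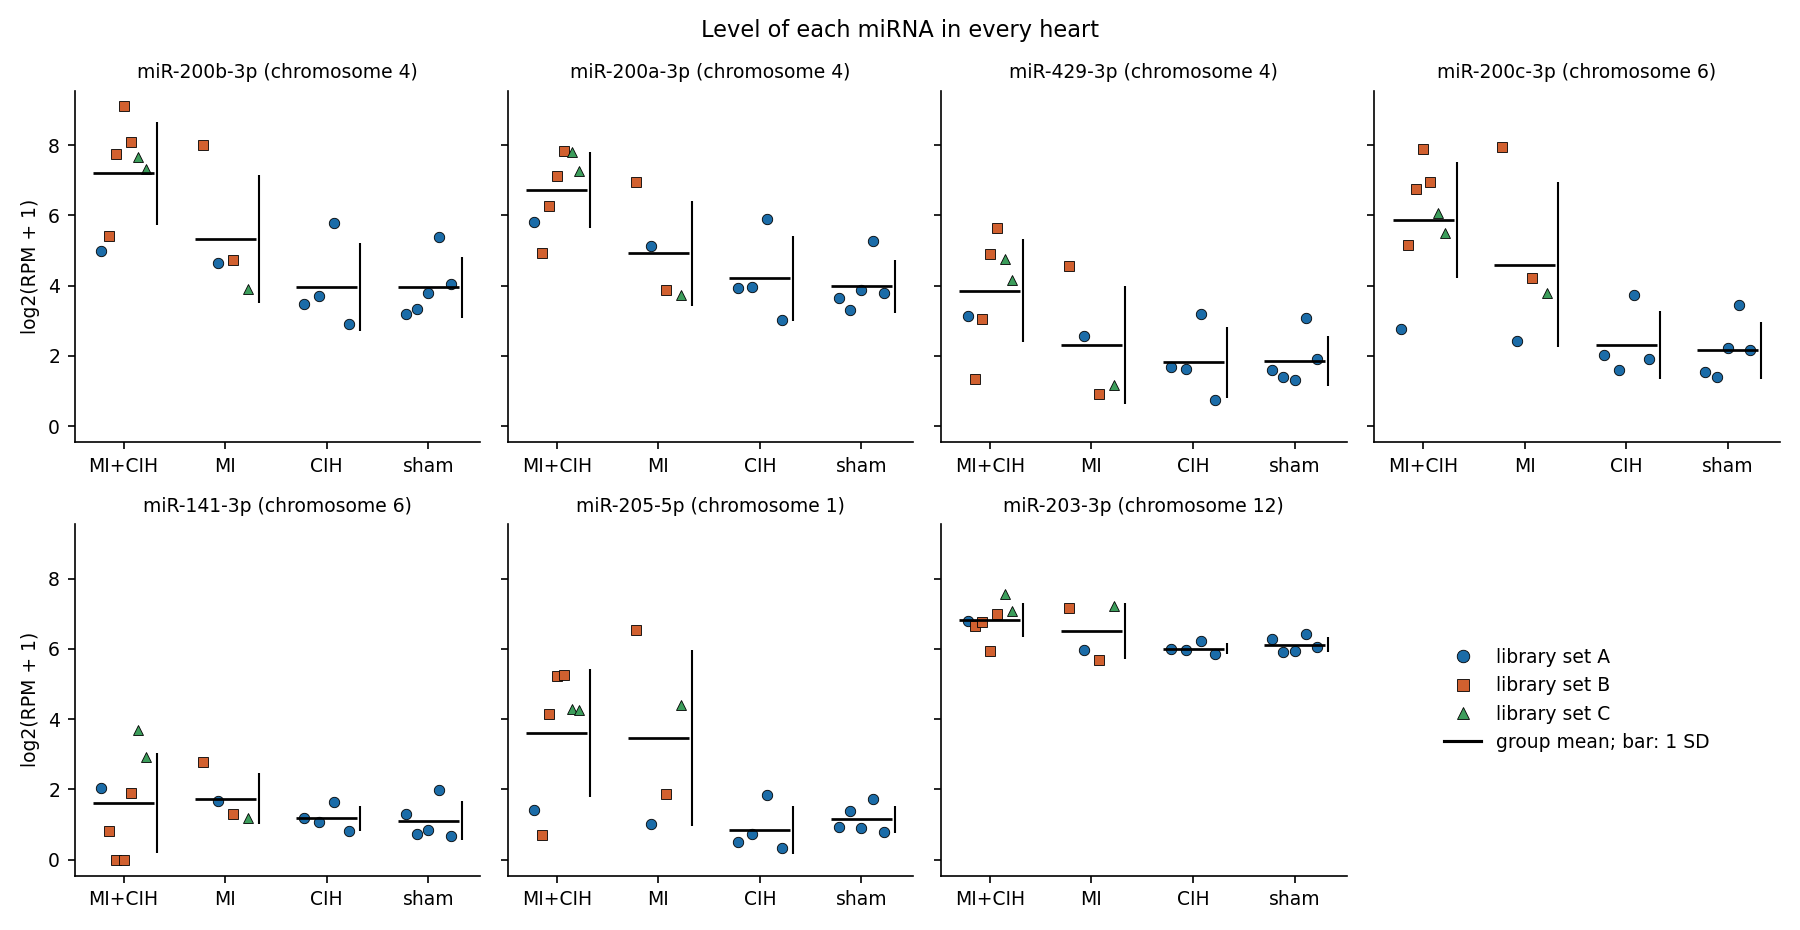
Level of each miRNA as log2(RPM + 1) in every heart, by group; marker shape and colour give the library set, horizontal lines the group mean and vertical bars 1 SD (n = 7 MI+CIH, 4 MI, 4 CIH, 5 sham). miR-200b-3p, miR-200a-3p, miR-429-3p, miR-200c-3p and miR-205-5p were highest in hearts of sets B and C, and miR-203-3p varied least.

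The chromosome 4 miRNAs were highest in MI+CIH hearts. miR-200b-3p, the most abundant, had 30.9, 201 and 547 RPM as its lowest, median and highest value in the 7 MI+CIH hearts. It had 256, 23.9, 25.4 and 14.1 RPM in MI hearts 1 to 4, 10.2, 12.1, 54.0 and 6.50 RPM in CIH hearts 1 to 4, and 8.22, 9.18, 12.9, 40.3 and 15.4 RPM in sham hearts 1 to 5. Thus 6 of 7 MI+CIH hearts lay above every sham heart, 1 MI heart (MI 1) lay within the upper MI+CIH range, and all groups overlapped. miR-200a-3p, its partner with the other seed, had 29.7, 138 and 228 RPM as lowest, median and highest in MI+CIH hearts. It had 123, 34.2, 13.6 and 12.3 RPM in MI hearts, 14.4, 14.5, 59.1 and 7.17 RPM in CIH hearts, and 11.5, 8.91, 13.7, 37.9 and 12.9 RPM in sham hearts. The same single hearts were high as for miR-200b-3p, namely MI 1, CIH 3 and sham 4. miR-429-3p was the low member of the locus, at 1.53 to 48.9 RPM in MI+CIH hearts, 0.886 to 22.6 in MI, 0.675 to 8.12 in CIH and 1.47 to 7.37 RPM in sham hearts.

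Against sham, 5 of the 6 members that could be tested rose in MI+CIH hearts, and miR-203-3p did not pass. The test took the 360 miRNAs that reached 5 RPM in 4 or more hearts, which leaves out miR-141-3p; differences are on the log2(RPM + 1) scale, which understates the change of low members. miR-200c-3p rose by 3.71 (SE 0.83, limma adjusted p 0.0023), miR-200b-3p by 3.24 (SE 0.75, adjusted p 0.0026) and miR-200a-3p by 2.74 (SE 0.64, adjusted p 0.0026). miR-205-5p rose by 2.46 (SE 0.85, adjusted p 0.0203) and miR-429-3p by 2.01 (SE 0.70, adjusted p 0.0219). The background for these counts is high, since 56.7% of the 360 miRNAs were called in this comparison, 52.2% of them as higher, and the median of all 360 was a log2 change of 1.39. The median of the 6 members was 2.60. Against CIH hearts the same 5 of 6 rose, with log2 changes of 3.55 for miR-200c-3p, 3.22 for miR-200b-3p, 2.75 for miR-205-5p, 2.51 for miR-200a-3p and 2.05 for miR-429-3p (adjusted p 0.0035 to 0.0254). There 56.9% of all miRNAs were called, 54.7% as higher, with a median change of 1.51. These comparisons share the MI+CIH hearts and are not independent. Against CIH too the calls depended on the fit: with median-of-ratios scaling miR-200c-3p alone passed (2.05, adjusted p 0.0483, 26.9% of all called), and 0 of 6 members passed with edgeR (20.8% of all called) or with the library set term described next (0%). With the set term the changes against CIH were 2.15 for miR-200a-3p, 1.81 for miR-429-3p and 1.68 for miR-200b-3p, but 0.75 for miR-200c-3p and 0.29 for miR-205-5p (adjusted p 0.283 to 0.905).

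The library set moved with these differences. With a term for the set, 0 of 6 members and 0 of 360 miRNAs (0%) were called in MI+CIH against sham, where 21 were at an unadjusted p under 0.05. miR-200a-3p then kept a log2 change of 2.37 (adjusted p 0.618, unadjusted p 0.0214), while that of miR-200c-3p was 0.91 and that of miR-205-5p -0.0075. In set A, which holds all sham hearts, MI+CIH 1 had 55.4 RPM of miR-200a-3p, above the 8.91 to 37.9 RPM of the sham hearts, but its miR-200b-3p (30.9 RPM) and miR-200c-3p (5.83 RPM) lay below sham 4. The part of the library set in the result was not tested beyond this term. Scaling by median of ratios, which moves the median change of all 360 to 0.12, left miR-200c-3p (2.45, adjusted p 0.0139) and miR-200b-3p (1.89, adjusted p 0.0468) called, beside 31.1% of all. On the recovered reads edgeR called miR-200c-3p alone of the 6 (2.63, adjusted p 0.0267), beside 23.6% of all. Without sham 1 and MI 2 the same 5 members were called, beside 55.3% of all. The low members were the least firm: with no filter on low values, where 1416 miRNAs were tested, miR-205-5p (2.46, adjusted p 0.0696) and miR-429-3p (2.01, adjusted p 0.0699) kept their log2 change and no longer passed, nor did miR-429-3p without MI+CIH 5 (0.0501) or without sham 3 (0.0537). In whole hearts, fewer cells of a type and less RNA per cell cannot be told apart, and the heart muscle miRNAs moved with the groups as well. They summed to 88403 to 269434 RPM (median 150366) in MI+CIH hearts and 193358 to 278561 RPM (median 274805) in sham hearts, a sum made up mostly of miR-1a-3p. Of the 4, miR-1a-3p, miR-208a-3p and miR-499-5p fell and miR-133a-3p rose by 1.60 (adjusted p 0.015), and with the set term 0 of 4 were called. Their part in the members' differences was not tested.

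MI+CIH against MI asks what CIH adds to infarction, as the series title poses it, and it is the comparison in which both groups span all 3 sets. 0 of 6 members passed, beside 0 of 360 miRNAs (0%) and 17 at an unadjusted p under 0.05 (4.72%) in limma; edgeR also called 0 (0%). Over all hearts the members with the largest differences were those of chromosome 4. miR-200b-3p averaged 210 ± 173 RPM in MI+CIH hearts and 79.9 ± 118 RPM in MI hearts (SD, n = 7 and 4), a log2 change of 1.87 (95% interval 0.20 to 3.54, adjusted p 0.834). miR-200a-3p averaged 129 ± 78.8 RPM in MI+CIH hearts and 45.6 ± 52.2 RPM in MI hearts, a log2 change of 1.802 (0.39 to 3.22, adjusted p 0.772), and miR-429-3p gave 1.55. For each of the 3, 5 of 7 MI+CIH hearts lay above every MI heart of their own set. For miR-200c-3p, with 88.0 ± 77.0 RPM in MI+CIH hearts and 69.6 ± 116 RPM in MI hearts, this held for 3 of 7, and for miR-205-5p for 1 of 7. For the chromosome 4 miRNAs the exceptions were MI+CIH 2 and 3, which lay below MI 1 of set B. The order of the members rests on that heart. Without MI 1 the log2 changes were 2.77 for miR-200b-3p, 2.48 for miR-200a-3p, 2.38 for miR-200c-3p, 2.30 for miR-429-3p and 1.17 for miR-205-5p, so that miR-200c-3p of chromosome 6 was no longer apart from the chromosome 4 miRNAs; 0 of 360 miRNAs were called.

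With the set term the chromosome 4 differences were little altered and still did not pass. miR-200a-3p gave 1.76 (95% interval 0.35 to 3.16, adjusted p 0.262), miR-200b-3p 1.68 (0.16 to 3.20, adjusted p 0.296) and miR-429-3p 1.52 (-0.06 to 3.10). The intervals of miR-200c-3p (0.92, -0.39 to 2.23), miR-203-3p (0.28, -0.30 to 0.86) and miR-205-5p (-0.16, -1.76 to 1.45) all span 0. In that fit 2 of 360 miRNAs were called (0.556%), neither of them a member, and the median of all was 0.27.

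**Figure D2:**
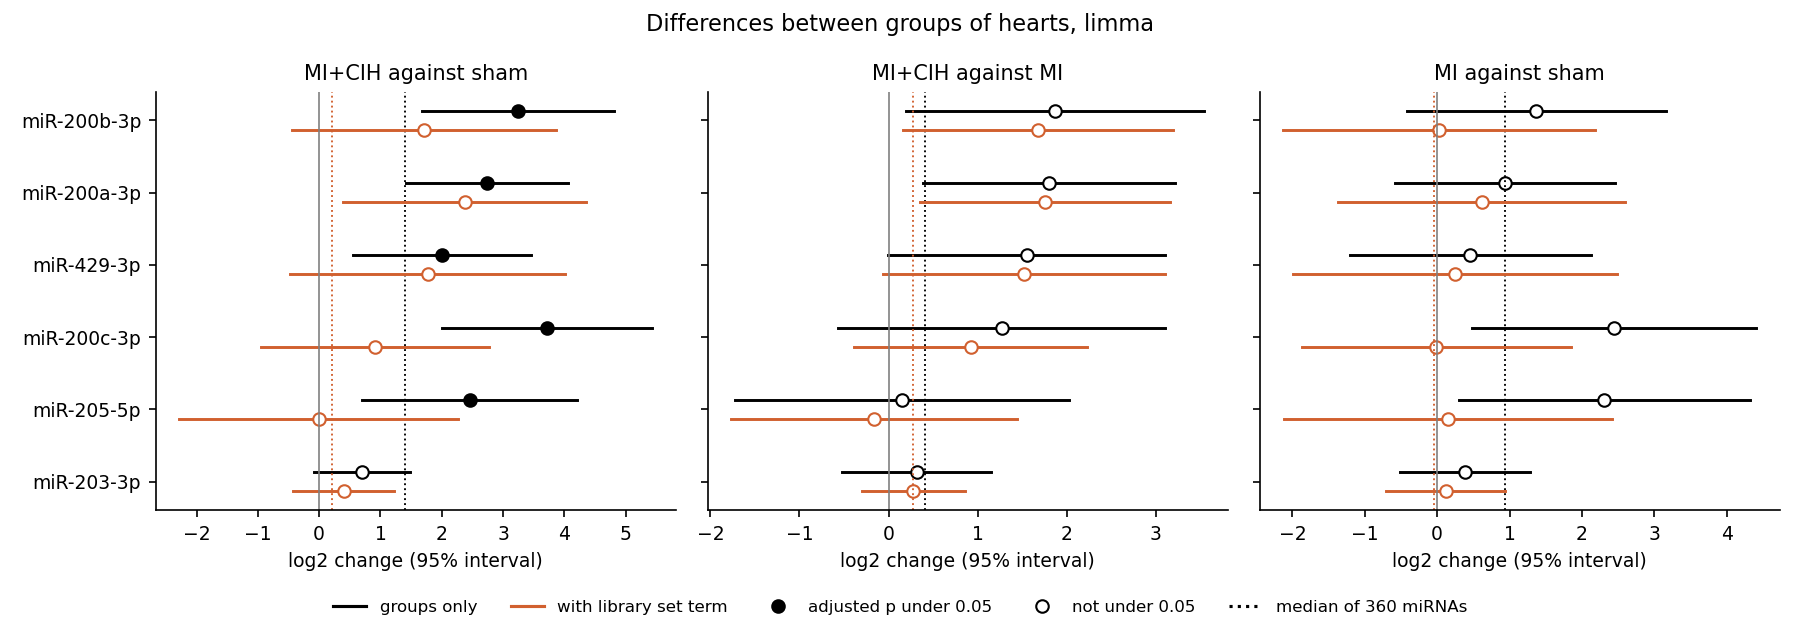
Log2 change of the 6 tested members with its 95% interval in 3 comparisons, from limma on log2(RPM + 1), for groups only (black) and with a library set term (orange); filled points have an adjusted p under 0.05, and dotted lines mark the median of all 360 miRNAs. The 5 filled points are all in MI+CIH against sham without the set term.

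The chromosome 6 locus gave fewer reads. Its larger member, miR-200c-3p, followed the library sets more closely than the chromosome 4 miRNAs did. Its smaller member, miR-141-3p, did not, with medians of 1.26 RPM in set A, 1.12 in set B and 6.57 RPM in set C. miR-200c-3p had 5.83, 66.6 and 237 RPM as lowest, median and highest in MI+CIH hearts. It had 244, 4.42, 17.7 and 12.8 RPM in MI hearts, 3.07, 2.002, 12.4 and 2.78 RPM in CIH hearts, and 1.92, 1.62, 3.71, 9.82 and 3.52 RPM in sham hearts. Every heart of sets B and C (12.8 to 244 RPM) lay above every heart of set A (1.62 to 12.4 RPM), whatever its group. miR-141-3p, from the next hairpin, had 0, 2.72 and 11.9 RPM as lowest, median and highest in MI+CIH hearts. It had 5.89, 2.21, 1.48 and 1.27 RPM in MI hearts, 1.26, 1.08, 2.13 and 0.759 RPM in CIH hearts, and 1.46, 0.675, 0.782, 2.98 and 0.586 RPM in sham hearts. In set B, MI 1, which had the most miR-200c-3p of all hearts, also had more miR-141-3p (5.89 RPM) than any set A heart (0.586 to 3.11 RPM). The other 5 hearts of set B, at 0 to 2.72 RPM, did not lie above set A: MI+CIH 3 and 4, with 106 and 237 RPM of miR-200c-3p, had 0 reads of it, where 3 reads would have been 1.46 and 1.51 RPM. Fitted without a filter on low values, its log2 change was 0.52 in MI+CIH against sham (adjusted p 0.526) and -0.11 against MI (adjusted p 0.972).

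Set side by side, the chromosome 4 miRNAs summed to 72.7 to 714 RPM in MI+CIH hearts, 27.7 to 401 in MI, 14.3 to 121 in CIH and 19.7 to 85.6 RPM in sham hearts. The chromosome 6 miRNAs summed to 8.94 to 237 RPM in MI+CIH hearts, 6.63 to 249 in MI, 3.09 to 14.5 in CIH and 2.29 to 12.8 RPM in sham hearts. The chromosome 4 locus was the larger in every heart. The ranks of the 2 sums over the 20 hearts had a Spearman rho of 0.88, and of 0.82 within set A (n = 11), as a description of libraries that share depth and set.

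The balance between the loci differed by set. Of the reads of the 5 miR-200 members, the chromosome 6 locus gave 8.67% to 19.8% in set A. Its share was 18.4% to 38.3% in set B hearts and 13.3% to 33.8% in those of set C. By group the share was 19.9 ± 8.48% in MI+CIH (SD, n = 7), 28.5 ± 12.9% in MI (n = 4), 13.5 ± 4.55% in CIH (n = 4) and 12.5 ± 1.403% in sham (n = 5). Within sets, 6 of 7 MI+CIH hearts had a lower chromosome 6 share than every MI heart of the same set. In set C the share was 14.9% in MI+CIH 6 (exact 95% interval 14.0 to 15.7) and 13.3% in MI+CIH 7 (12.4 to 14.4), against 33.8% in MI 4 (30.4 to 37.3). In set B it was 18.4% to 32.9% in the 4 MI+CIH hearts, against 38.3% in MI 1 (37.1 to 39.6) and 32.5% in MI 3 (26.1 to 39.5). The interval of MI 3 overlaps those of MI+CIH 2 (29.5 to 36.5), MI+CIH 3 (23.3 to 29.4) and MI+CIH 4 (23.0 to 26.9). Set B held 2 MI hearts, and sets A and C held 1 each. In set A, MI+CIH 1 had 8.67% (7.43 to 10.05) and MI 2 had 9.51% (7.77 to 11.5), whose intervals overlap. These intervals cover counting error only, and the share is given as a description with no test.

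**Figure D3:**
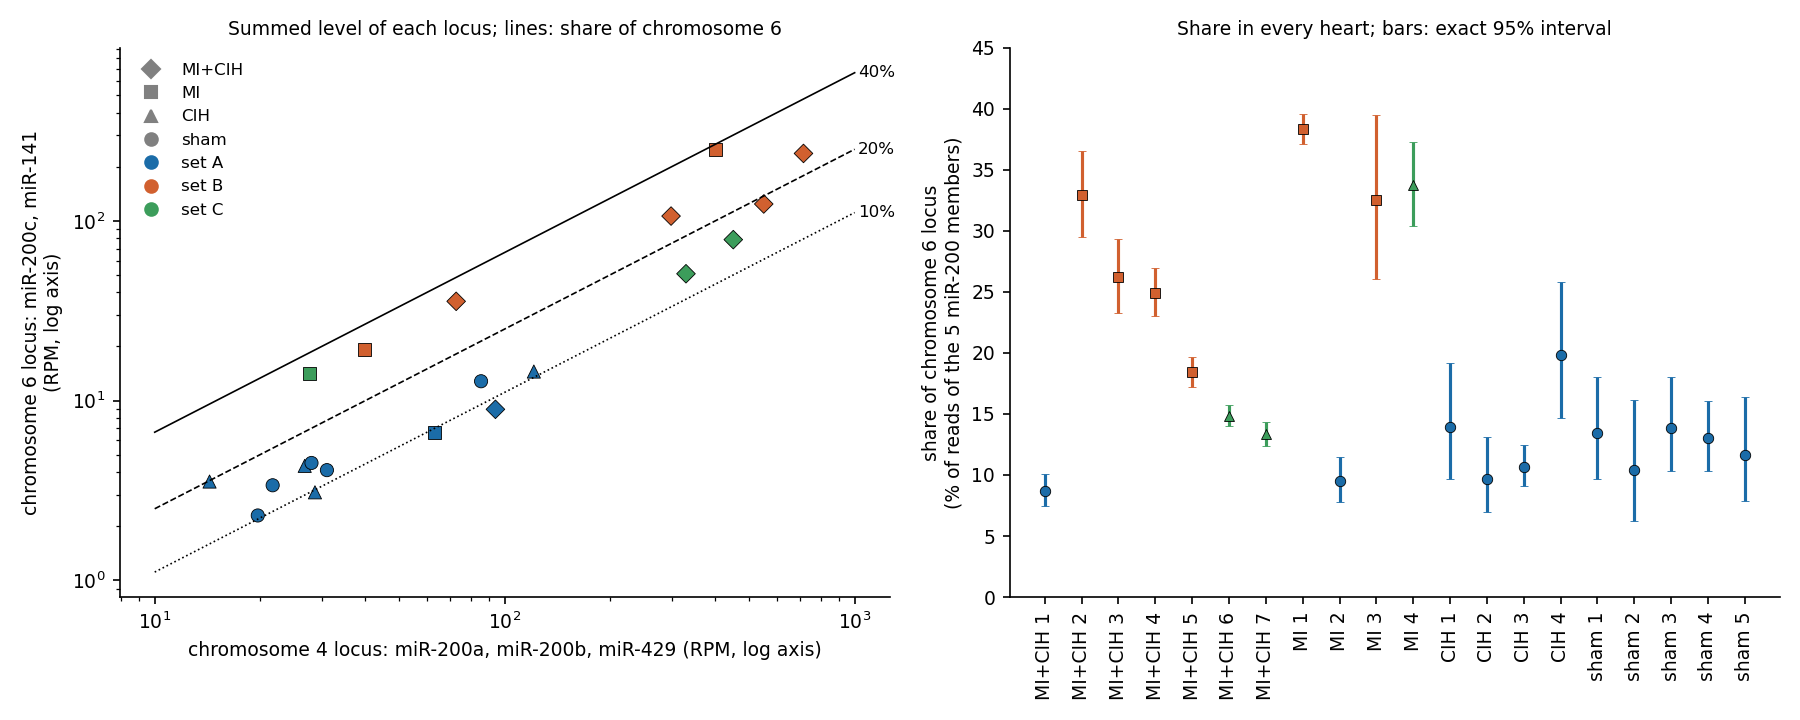
Left, summed RPM of the chromosome 6 miRNAs against that of the chromosome 4 miRNAs in every heart on log axes, with marker shape for group, colour for library set and lines at chromosome 6 shares of 10, 20 and 40%. Right, the share in every heart with its exact 95% interval; set A hearts lie at 8.67% to 19.8%, and MI 1, MI 3, MI 4 and MI+CIH 2 lie above 30%.

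Members of 1 locus did not keep a fixed ratio. On chromosome 4, reads of miR-200b-3p over miR-200a-3p were 0.557 to 1.19 in set A. The ratio was 1.2 to 3.96 in set B hearts and 0.902 to 1.15 in those of set C, so that the set B hearts lay above all others. The gap was narrow at its edge. MI+CIH 5 of set B had 1.2, and sham 5 of set A had 1.19 from 105 over 88 reads. The medians were 0.906 in set A, 1.98 in set B and 1.05 in set C. miR-429-3p over miR-200a-3p was 0.0515 to 0.216 over all hearts, with the sets overlapping. On chromosome 6, miR-141-3p over miR-200c-3p was 0.167 to 0.762 in set A. That ratio was 0 to 0.0833 in set B hearts and 0.0987 to 0.179 in those of set C, so that here the set B hearts lay below all others. This edge was narrow too, with MI 3 of set B at 0.0833 (5 over 60 reads) and MI 4 of set C at 0.0987. The medians were 0.390 in set A, 0.0222 in set B and 0.142 in set C. No counting interval was taken for either ratio. By median, the members relatively high in set B were thus miR-200b-3p on chromosome 4 and miR-200c-3p on chromosome 6. Both have the miR-200b seed, but so does miR-429-3p, which was not relatively high there. Its ratio to miR-200a-3p had a median of 0.140 in set B and 0.145 in set A. Reads with that seed (miR-200b-3p, miR-200c-3p and miR-429-3p together) made up 43.2% to 61.7% of the family in set A, 65.8% to 85.5% in set B hearts and 55.6% to 67.5% in those of set C. The ranges of sets A and B do not overlap. The 2 infarcted hearts of set A lay at its low end and not with set B: MI+CIH 1 had a seed share of 43.2% and MI 2 of 47.8%, and miR-200b-3p over miR-200a-3p was 0.557 in MI+CIH 1 and 0.699 in MI 2, the lowest values of the 20 hearts on both measures. The label of MI 2 is in doubt, as given above.

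miR-205-5p, which represses the same ZEB factors from an unrelated seed, was low in every heart of set A and high in most hearts of the other sets. It had 0.612, 18.0 and 36.9 RPM as lowest, median and highest in MI+CIH hearts. It had 91.0, 1.04, 2.66 and 20.2 RPM in MI hearts, 0.419, 0.667, 2.61 and 0.253 RPM in CIH hearts, and 0.913, 1.62, 0.880, 2.28 and 0.732 RPM in sham hearts. The 3 hearts of set C were alike (18.0 to 20.2 RPM), although MI 4 among them had low miR-200b-3p. In set A no heart passed 2.61 RPM, and in set B the values ran from 0.612 to 91.0 RPM. The highest value of all was in an MI heart, and the log2 change in MI+CIH against MI was 0.15 (SE 0.90, adjusted p 0.957).

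miR-203-3p was the steady member, at 118 ± 38.3 RPM in MI+CIH (SD, n = 7), 100 ± 51.3 in MI (n = 4), 63.6 ± 6.84 in CIH (n = 4) and 69.3 ± 10.8 RPM in sham hearts (n = 5). Its log2 change was 0.70 in MI+CIH against sham (SE 0.38, adjusted p 0.113) and 0.81 against CIH (SE 0.40, adjusted p 0.0864). Without MI+CIH 4 it passed against CIH, with 0.96 (adjusted p 0.042). 6 of 7 MI+CIH hearts lay above every sham heart, and MI+CIH 4 (60.8 RPM), which had the most miR-200b-3p of all hearts, lay inside the sham range of 59.0 to 84.2 RPM. The direction depends on the scaling: by median of ratios the change against sham was -0.68 and by edgeR -0.57, neither past the threshold. By RPM the median of all 360 was 1.39, so that relative to it miR-203-3p lay lower and the other 5 tested members higher.

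No member passed the test in hearts with infarction alone or CIH alone. In MI against sham 0 of 6 passed, beside 0 of 360 (0%) and 101 (28.1%) at an unadjusted p under 0.05 in limma; edgeR called none of the 6 either, beside 0% of all. miR-200c-3p (log2 change 2.44, SE 0.95, adjusted p 0.125) and miR-205-5p (2.31, SE 0.97, adjusted p 0.138) had the largest differences, above the median of 0.94, while miR-200a-3p (0.94) lay on it. Without sham 1 and MI 2, whose labels are in doubt, both passed: miR-200c-3p with 3.01 (adjusted p 0.0368) and miR-205-5p with 3.06 (adjusted p 0.0365), when 114 of 360 miRNAs were called (31.7%). With MI 2 alone left out they also passed (adjusted p 0.0207 and 0.0224). The 3 MI hearts that remain are then all in sets B and C and the sham hearts all in set A. In CIH against sham, where all hearts were in set A, 0 of 6 members and 0 of 360 miRNAs (0%) passed in limma, with 1 of 360 (0.278%) and no member at an unadjusted p under 0.05; edgeR called 0. The intervals there are wide, -1.77 to 1.81 for miR-200b-3p and -1.29 to 1.74 for miR-200a-3p. The interaction, which asks whether CIH acted differently in infarcted and in uninfarcted hearts, gave 1.85 for miR-200b-3p (SE 1.18) and 1.57 for miR-200a-3p (SE 1.0), with no member past the threshold (lowest adjusted p 0.88) and 0% of all miRNAs called (14 at an unadjusted p under 0.05); edgeR called 0.

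The other arms of the hairpins were not among the members, but they come from the same hairpins and hearts. The Mir200a hairpin is printed from RefSeq (GRCm38.p6, chr4:156054896-156054985, minus strand) with its 5p and then its 3p arm in capitals, because it was the one miR-200 hairpin whose second arm was measured well enough to be tested.
Mir200a: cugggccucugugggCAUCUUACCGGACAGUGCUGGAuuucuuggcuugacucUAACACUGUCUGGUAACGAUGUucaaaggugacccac
miR-200a-5p was highest in MI+CIH 6 (48.3 RPM) and MI+CIH 7 (23.2 RPM), both of set C, and ran from 1.22 to 15.6 RPM in the other 5 MI+CIH hearts. It had 10.2, 1.86, 3.25 and 4.02 RPM in MI hearts, 2.24, 1.001, 6.67 and 0.169 RPM in CIH hearts, and 1.28, 1.89, 1.27, 2.81 and 2.64 RPM in sham hearts. MI 1 and CIH 3, the high hearts of their groups for miR-200a-3p, were the high hearts of their groups for this arm too. Sham 4, the high sham heart for miR-200a-3p, did not stand out here. It had 2.81 RPM (16 reads), against 2.64 RPM (18 reads) in sham 5. Its reads were 0.0235 to 0.327 times those of miR-200a-3p. The other second arms were scarce, with means over all hearts of 1.01 RPM for miR-200b-5p, 0.322 for miR-141-5p, 0.0113 for miR-200c-5p and 0.0628 RPM for miR-205-3p. miR-203-5p averaged 0.949 RPM and had the same reads as miR-203b-3p in 19 of 20 hearts, so these entries cannot be told apart.

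Other miRNAs known from epithelia were measured beside the members. Of 13 on the lists, 11 could be tested, and in MI+CIH against sham 7 rose and 1 fell in limma, beside the 52.2% of all 360 that were called higher and 56.7% called in either direction; with the set term 0 rose and 0 fell. All 3 tested miRNAs of ciliated epithelium (miR-34b-3p, miR-34c-5p and miR-34c-3p) rose, as did 3 of 4 of general and secretory epithelium (miR-375-3p, miR-182-5p and miR-183-5p; miR-96-5p did not pass) and miR-31-5p of skin. Of gut and kidney epithelium none rose, and miR-192-5p fell by 1.55 (adjusted p 0.0124). The general and secretory list summed to 23.3 to 244 RPM in MI+CIH, 9.53 to 154 in MI, 4.89 to 39.7 in CIH and 5.38 to 15.6 RPM in sham hearts. The ciliated list summed to 107 to 1118 RPM in MI+CIH, 35.1 to 128 in MI, 10.04 to 40.3 in CIH and 12.96 to 129 RPM in sham hearts. This sum was made up mostly of miR-34c-5p. Its highest sham value was that of sham 1, whose label is in doubt, and the sham median was 15.6 RPM. The list members differed widely in the uninfarcted hearts. miR-34c-5p had 9.45 to 34.5 RPM in CIH hearts, 12.1 to 31.6 RPM in sham hearts 2 to 5 and 125 RPM in sham 1. miR-192-5p had 206 to 842 RPM in CIH hearts and 445 to 762 RPM in sham hearts. miR-182-5p had 1.82 to 21.3 RPM in CIH hearts and 2.05 to 7.37 RPM in sham hearts. miR-375-3p, of endocrine and secretory cells, was scarce there, with 0.253 to 3.77 RPM in CIH hearts and 0 to 0.526 RPM in sham hearts, with 0 reads in sham 2 and 5. In MI+CIH it had 1.78 to 101 RPM and in MI 0.345 to 17.9 RPM. When MI+CIH hearts were set against MI hearts with the set term, the 2 miRNAs called of 360 were both on these lists, miR-375-3p (2.03, adjusted p 0.0284) and miR-34b-3p (1.97, adjusted p 0.0284). The lists were chosen with earlier results of these data known, so their place on the lists is not an independent result. Leukocyte miRNAs summed to 361 to 1930 RPM in MI+CIH, 207 to 1599 in MI, 248 to 505 in CIH and 281 to 652 RPM in sham hearts. The high sums belonged to set B hearts (1209 to 1930 RPM), whereas set C hearts (325 to 640 RPM) lay within the sham range. Of these 5 miRNAs, 2 rose and 0 fell in MI+CIH against sham in limma, and with the set term 0 rose. The log2 changes of miR-142a-5p (-1.12) and miR-142a-3p (-0.50) were negative and did not pass. The part of other cell types in the members' levels was not tested.

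The miRNAs most like each member in pattern were named by Spearman's rho over the 20 hearts among the tested miRNAs, members and their hairpins left out, as a description. For the chromosome 4 sum these were miR-375-3p (0.85), miR-34c-3p (0.84) and miR-92b-3p (0.83), and with each set's mean subtracted miR-92b-3p (0.86), miR-34b-3p (0.84) and miR-182-5p (0.83). For the chromosome 6 sum they were miR-130b-5p (0.93), miR-375-3p (0.91) and let-7f-5p (0.91), and with set means subtracted miR-182-5p (0.77), miR-92b-3p (0.75) and miR-130b-5p (0.74). miR-205-5p was most like miR-182-5p (0.79, and 0.71 with set means subtracted). miR-203-3p was most like a different group, miR-708-3p (0.80), miR-376b-5p (0.78) and miR-34c-5p (0.77), and with set means subtracted miR-146a-5p (0.75), miR-10a-3p (0.73) and miR-411-3p (0.70).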

How the data were processed

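Small RNA was sequenced from 20 whole mouse hearts after Trizol extraction and a NEBNext small RNA library preparation, per the labels' protocols. The build was mm10 and the tools Bowtie and DESeq 1.8.3, per the submitters' processing notes, which give no role for each; the miRBase release and counting rules are not given in the sources used here. The deposited table is headed TPM, but its values are RPM as the authors computed them: each column sums to 1000000 and no length enters. Divided by the value of 1 read, 100% of the values in each library came out whole to within 0.05 reads, which gave back the reads. Totals of 1991323 to 18138415 reads set the precision: the floor of 3 reads was 0.165 to 1.51 RPM.

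limma 3.58.1 (R 4.3.3) was fitted to log2(RPM + 1) over all 20 libraries with a mean per group, with a trend, two-sided, for 360 miRNAs at 5 RPM or more in 4 or more libraries. Within each comparison p was adjusted over the 360 (Benjamini-Hochberg, threshold 0.05); adjusted p with no tool named are limma's. edgeR 4.0.16 (quasi-likelihood) on recovered reads was an alternative and called 85 in MI+CIH against sham. Library sets came from average-linkage clustering of the profiles of the 360 tested miRNAs by correlation, cut at 3 sets. Other alternatives were pseudocounts of 0.5 and 5, no filter, median-of-ratios scaling, removal of 12 repeated entries, the replicate number as a block, a library set term, and leaving out sham 1 and MI 2 or each library. The set term with median-of-ratios scaling, and with sham 1 and MI 2 left out, were chosen after seeing the data. Named miRNAs were the 7 members, their other arms, the epithelial lists, and the 3 most like each pattern. Members, lists and alternatives were chosen with earlier results of these data known. The fits were tested on simulated counts. These had changes in the MI group only and no library sets, so they do not show how the fits behave where set and infarction go together. Locus shares have exact Clopper-Pearson 95% intervals (scipy 1.17.1).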

Additional observations from a re-analysis of the deposited data

Results flagged for a closer look

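Single hearts stood far from the rest of their group, by Dixon's test at the 95% level, for 4 members of the miR-200 family. The 32 combinations examined were the 7 members and the chromosome 6 share, each in 4 groups, and 9 held such a heart. Chance gives about 1 in 20 only for normally distributed values. The values were not on a log scale and in all 9 the heart was the highest of its group, so the count cannot be set against that rate. In the MI group MI 1 had 256 RPM of miR-200b-3p (the others 14.1 to 25.4) and 244 RPM of miR-200c-3p (the others 4.42 to 17.7). In the CIH group CIH 3 had 54.0 RPM of miR-200b-3p (others 6.50 to 12.1), 59.1 RPM of miR-200a-3p (others 7.17 to 14.5) and 12.4 RPM of miR-200c-3p (others 2.002 to 3.07). In the sham group sham 4 had 40.3 RPM of miR-200b-3p (others 8.22 to 15.4), 37.9 RPM of miR-200a-3p (others 8.91 to 13.7), 7.37 RPM of miR-429-3p (others 1.47 to 2.78) and 9.82 RPM of miR-200c-3p (others 1.62 to 3.71). The members are from shared clusters and the same hearts, so these are not separate observations.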

How the results depend on the processing

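Calls in MI+CIH against sham, 204 of 360, were 135 without a filter, 112 with median-of-ratios scaling, 85 with edgeR, and 0 with the library set term, with it and median-of-ratios scaling, or with it and sham 1 and MI 2 left out. Calls in MI+CIH against CIH, 205, were 97, 75, 0, 0 and 21 under median-of-ratios scaling, edgeR, the set term and these 2 combinations. Calls in MI+CIH against MI, 0, were 2 with the set term, 4 with it and sham 1 and MI 2 left out, and 0 to 3 with 1 library left out (3 without MI+CIH 1, 1 without MI 3). Calls in MI against sham, 0, were 114 without sham 1 and MI 2, and 0 to 113 with 1 library left out (31 without MI+CIH 1, 113 without MI 2). CIH against sham and the interaction called 0 with each library left out. As miR-200c-3p over miR-200b-3p plus miR-200c-3p, the mean chromosome 6 share was 28.9% in MI+CIH, 38.3% in MI, 21.5% in CIH and 18.9% in sham hearts.

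Of the member calls, leaving out 1 library ended only those of miR-429-3p (without MI+CIH 5 or sham 3 against sham, and without MI+CIH 5, CIH 1, CIH 2 or CIH 4 against CIH). It added those of miR-203-3p against CIH without MI+CIH 4, and of miR-200c-3p and miR-205-5p in MI against sham without MI 2. Same-numbered hearts did not deviate together (25 pairs, correlation -0.71 to 0.87, median -0.01; 4 of 18 hearts correlated best with their own number), so the numbers were taken as names. Under the replicate block miR-429-3p was not called against sham (adjusted p 0.0597) or CIH (0.123), nor miR-205-5p against CIH (0.0557), and directions turned for miR-205-5p in MI+CIH against MI (-0.31) and in the interaction (-0.21) and for miR-429-3p in CIH against sham (0.22).

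Other directions turned only where no call was made, except for miR-205-5p in MI+CIH against sham (-0.0075 with the set term, -0.14 with it and median-of-ratios scaling); the cause was not tested. With edgeR miR-203-3p gave -0.57 in MI+CIH against sham, -0.72 against CIH, -0.14 against MI, -0.43 in MI against sham, 0.16 in CIH against sham and -0.29 in the interaction. With median-of-ratios scaling it gave -0.68, -0.84, -0.15, -0.53, 0.16 and -0.31 in that order, and with the set term added -0.042 in MI+CIH against MI, 0.16 in CIH against sham and -0.20 in the interaction. miR-205-5p in MI+CIH against MI gave -0.71 with edgeR, -0.15 with median-of-ratios scaling, -0.16 with the set term, -0.35 and -0.29 with its combinations, -0.66 without sham 1 and MI 2, and -0.66 to 1.17 with 1 library left out. In the interaction it gave -0.72 with edgeR, -0.13 with the set term and median-of-ratios scaling -0.31 without sham 1 and MI 2 and -0.37 to 1.47 with 1 library left out, and miR-200c-3p gave -0.41 with edgeR. In MI against sham miR-200c-3p gave -0.013 with the set term, and with sham 1 and MI 2 left out as well miR-200c-3p gave -0.61, miR-200b-3p -1.15, miR-429-3p -0.54 and miR-200a-3p -0.27. There miR-429-3p gave -0.18 with median-of-ratios scaling and -0.29 to 0.92 with 1 library left out. In CIH against sham miR-429-3p gave 0.52 with edgeR, 0.15 with median-of-ratios scaling with and without the set term, 0.011 with a pseudocount of 5, and -0.50 to 0.32 with 1 library left out. miR-205-5p gave 0.0058 there with edgeR, miR-200b-3p -0.17 without sham 1 and MI 2, with or without the set term. With 1 library left out miR-200b-3p gave -0.58 to 0.38, miR-200a-3p -0.34 to 0.62 and miR-200c-3p -0.31 to 0.48. Members near 1 RPM rest on few reads and limit these directions.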
